A study of Homo sapiens with 21 samples.

Results

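The replication-dependent histone genes supply the bulk of the histone protein that packages newly copied DNA. They were taken here as the protein-coding genes on chromosomes 1 to 22 named H1-1 to H1-6, or H2AC, H2BC, H3C or H4C followed by a number, which gave 69 of 19122 genes: 6 H1, 17 H2A, 18 H2B, 13 H3 and 15 H4 genes. Of these, 55 lie on chromosome 6, 13 on chromosome 1 and 1, H4C16, on chromosome 12. The data were ChIP-seq peak lists from CAMA1, an estrogen receptor-positive breast cancer cell line with amplified FGFR1, in which the study mapped the receptor tyrosine kinase FGFR1 on chromatin and asked whether its peaks depend on the forkhead factor FOXA1. Groups of 2 lists each held FGFR1 in cells transfected with siFOXA1, FGFR1 in cells transfected with the control siNT, and, in untransfected cells, FGFR1, RNA polymerase II phosphorylated at serine 5 (Pol II S5P), H3K4me3, H3K27ac and FOXA1. All cells had spent 48 h without estradiol before collection, and the transfected cells were collected 72 h after transfection. The labels name the lists of a group as replicates and do not say that they came from separate cultures, so the spread between them may be technical. No list measured RNA, cell cycle stage or the amount of FOXA1, so the knockdown itself could not be checked here.

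Replication-dependent histone genes are short, lack introns, and are transcribed mainly in S phase, when the cell copies its DNA. Their mRNAs end in a stem-loop instead of a poly(A) tail, and their transcription is organised by NPAT in a nuclear compartment called the histone locus body. H2A, H2B, H3 and H4 form the nucleosome core and H1 binds the linker DNA between cores, and many H2A and H2B genes stand head to head and share a promoter. Pol II S5P marks polymerase that has begun transcription near a gene start, H3K4me3 marks active promoters, and H3K27ac marks active promoters and enhancers.

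Promoters are shown for the member of each histone type with the strongest Pol II S5P peak and a promoter entry, for H2BC21, which stands for the strongest FGFR1 locus on chromosome 1, and for 3 members with no peak of any list (H3C7, H2BC9 and H4C6). The choice took any peak at the gene. The peak that chose H3C4 has its summit in H2AC7, and the peak that chose H2BC5 has its summit in H1-4. Neither summit lies in the printed promoter, so these need not be the strongest Pol II S5P promoters of their types. Each runs from 250 bases before to 50 bases after the gene start, 5′ to 3′ on the gene's strand, from RefSeq on GRCh38.p14. Capitals mark matches on either strand to TATAAA (the core of the TATA box), CCAAT (the box bound by NF-Y), ATTTGCAT (the octamer bound by POU2F1 at H2B promoters) and TGTTTAC (a forkhead core). The TATAAA matches of both strands overlap in H3C7. The marked windows are chr6:26156079-26156378 (+) for H1-4, chr6:27893136-27893435 (-) for H2AC17, chr6:26157871-26158170 (+) for H2BC5, chr6:26197237-26197536 (-) for H3C4, chr6:26027234-26027533 (-) for H4C2 and chr1:149886633-149886932 (-) for H2BC21. Those without peaks are chr6:26250586-26250885 (-) for H3C7, chr6:26251364-26251663 (+) for H2BC9 and chr6:26240143-26240442 (+) for H4C6.
H1-4: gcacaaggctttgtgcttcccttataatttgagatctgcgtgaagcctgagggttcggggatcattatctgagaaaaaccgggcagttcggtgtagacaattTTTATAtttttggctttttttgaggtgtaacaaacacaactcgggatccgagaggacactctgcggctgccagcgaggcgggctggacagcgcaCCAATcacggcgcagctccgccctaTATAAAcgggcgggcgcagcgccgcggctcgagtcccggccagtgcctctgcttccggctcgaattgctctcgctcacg
H2AC17: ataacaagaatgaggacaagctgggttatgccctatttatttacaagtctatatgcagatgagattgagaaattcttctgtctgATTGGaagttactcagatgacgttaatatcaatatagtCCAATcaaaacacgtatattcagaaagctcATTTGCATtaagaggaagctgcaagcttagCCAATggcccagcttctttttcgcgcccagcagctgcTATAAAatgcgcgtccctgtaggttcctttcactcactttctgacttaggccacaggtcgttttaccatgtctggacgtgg
H2BC5: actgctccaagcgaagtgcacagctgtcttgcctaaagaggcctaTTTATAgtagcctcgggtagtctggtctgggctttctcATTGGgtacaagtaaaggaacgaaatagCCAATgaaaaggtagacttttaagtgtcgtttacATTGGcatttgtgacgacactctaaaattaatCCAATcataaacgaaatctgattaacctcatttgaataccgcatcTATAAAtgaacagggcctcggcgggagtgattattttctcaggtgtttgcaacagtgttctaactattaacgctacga
H3C4: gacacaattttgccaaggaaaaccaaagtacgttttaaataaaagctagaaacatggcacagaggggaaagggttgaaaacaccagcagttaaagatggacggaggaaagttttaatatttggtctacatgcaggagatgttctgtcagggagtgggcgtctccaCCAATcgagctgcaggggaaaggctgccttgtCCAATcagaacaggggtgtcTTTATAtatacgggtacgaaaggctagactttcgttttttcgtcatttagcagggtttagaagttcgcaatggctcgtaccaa
H4C2: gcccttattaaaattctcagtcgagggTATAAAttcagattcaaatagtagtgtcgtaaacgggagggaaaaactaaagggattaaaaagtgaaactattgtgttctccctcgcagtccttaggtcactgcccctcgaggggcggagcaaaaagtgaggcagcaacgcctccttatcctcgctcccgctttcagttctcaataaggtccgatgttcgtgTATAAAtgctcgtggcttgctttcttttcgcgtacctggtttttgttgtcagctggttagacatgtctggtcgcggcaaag
H2BC21: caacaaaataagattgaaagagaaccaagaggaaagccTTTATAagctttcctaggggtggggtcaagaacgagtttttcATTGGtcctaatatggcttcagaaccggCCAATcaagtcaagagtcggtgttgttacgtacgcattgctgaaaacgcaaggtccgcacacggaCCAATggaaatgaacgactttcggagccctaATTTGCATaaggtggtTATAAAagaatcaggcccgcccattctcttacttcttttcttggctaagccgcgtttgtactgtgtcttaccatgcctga
H3C7: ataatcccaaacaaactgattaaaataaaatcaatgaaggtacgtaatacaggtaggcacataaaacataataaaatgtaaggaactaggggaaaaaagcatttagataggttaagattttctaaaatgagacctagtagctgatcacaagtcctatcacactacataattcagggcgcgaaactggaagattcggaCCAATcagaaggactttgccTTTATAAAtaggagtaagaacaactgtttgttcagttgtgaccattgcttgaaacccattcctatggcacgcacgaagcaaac
H2BC9: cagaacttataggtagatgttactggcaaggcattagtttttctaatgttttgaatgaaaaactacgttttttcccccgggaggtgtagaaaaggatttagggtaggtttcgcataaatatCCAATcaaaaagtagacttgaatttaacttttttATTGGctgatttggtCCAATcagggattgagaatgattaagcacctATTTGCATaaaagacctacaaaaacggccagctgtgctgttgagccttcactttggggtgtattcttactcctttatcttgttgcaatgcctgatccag
H4C6: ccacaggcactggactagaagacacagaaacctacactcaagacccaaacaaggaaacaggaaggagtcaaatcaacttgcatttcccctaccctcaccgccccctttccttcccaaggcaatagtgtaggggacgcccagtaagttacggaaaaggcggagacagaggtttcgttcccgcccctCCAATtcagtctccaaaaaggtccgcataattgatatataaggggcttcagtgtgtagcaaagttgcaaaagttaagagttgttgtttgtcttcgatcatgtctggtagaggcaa

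The promoter table held 64 of the 69 members, and TATAAA stood in 43 of them (67.2%), against 12.5% of the 15100 protein-coding genes with an entry. CCAAT stood in 54 members (84.4%), against 41.8% of all genes. All H1, H2A, H2B and H3 members with an entry held CCAAT, whereas 3 of 13 H4 members did. The octamer ATTTGCAT stood in 26 members (40.6%), against 2.19% of all genes, and 25 of the 26 were H2A or H2B genes (11 of 16 and 14 of 18). In H2B promoters its median position was -49 from the gene start, and in H2A promoters -192. H2AC4, H2AC16 and H2AC21 hold it without a head-to-head partner among the members. TGTTTAC stood in 2 members (3.12%), H2AC1 and H2BC1, which are head-to-head partners, against 3.77% of all genes. Members without Pol II S5P held these letters too, a description with no test: TATAAA stood in 72.5% of the 40 with it and 58.3% of the 24 without it, CCAAT in 82.5% and 87.5%, and ATTTGCAT in 47.5% and 29.2%. Among the printed promoters without peaks, H3C7 has TATAAA and CCAAT, H2BC9 has CCAAT and the octamer, and H4C6 has CCAAT. Of the printed promoters with peaks, H4C2 has no CCAAT, and the octamer stands in H2AC17 and H2BC21.

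A gene was called for a target where at least 1 peak of each of its 2 lists overlapped the gene or the 1 kb beyond either end. Pol II S5P was called at 45 members (65.2%), against 43.8% of all genes. FGFR1 was called at 26 members (37.7%), against 23.3% of all genes. H3K4me3 was called at 53 members (76.8%, against 74.9%), H3K27ac at 52 (75.4%, against 76.6%) and FOXA1 at 46 (66.7%, against 62.6%), shares near those of all genes. These backgrounds hold long genes, which offer more room for a peak, while 61 members are under 1000 bp. With windows around the gene ends only, FGFR1 was called at 26 members against 20.6% of all genes, Pol II S5P at 45 against 40%, H3K4me3 at 53 against 67.1%, H3K27ac at 52 against 68.3%, and FOXA1 at 45 (65.2%) against 33.3%. Of the 438 other protein-coding genes under 1000 bp, FGFR1 was called at 2.74%, Pol II S5P at 6.16%, H3K4me3 at 12.3%, H3K27ac at 16.2% and FOXA1 at 9.13%. How far the shares depend on gene length, expression or the spacing of the members was not tested.

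**Figure D1:**
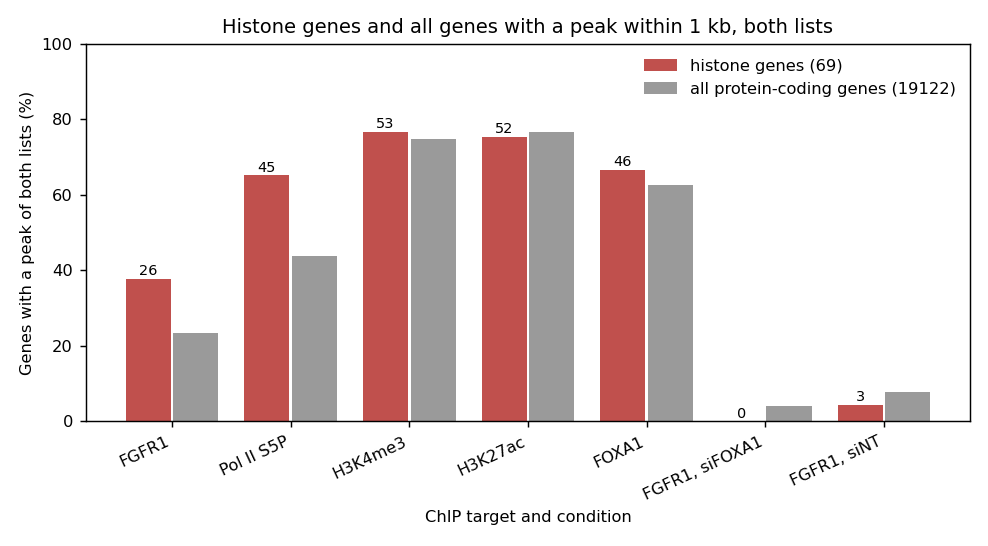
Share of genes, in percent, with a peak of both lists within 1 kb, for the 69 histone genes (red, with the number called above each bar) and all 19122 protein-coding genes (grey), by ChIP target and condition. The red bar stands above the grey bar by the widest margin for Pol II S5P (65.2% and 43.8%) and below it for FGFR1 in both transfected groups.

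Neighbouring members share peaks, so members are not independent. The 26 members with FGFR1 sat on 22 distinct peaks in list 1, the 45 members with Pol II S5P in both lists on 41 peaks in list 2, and a single H3K27ac peak covered up to 6 members. By target called in both lists, 26 members had all 5, 18 had all but FGFR1, and 16 had none. Of the rest, 5 (H2BC18, H3C13, H2AC18, H2AC19 and H3C3) had H3K4me3 and H3K27ac, 2 (H4C15 and H3C6) had these and FOXA1, H3C12 had all but FGFR1 and FOXA1, and H1-3 had H3K4me3 alone. The shares of these combinations over all genes were not counted. No member had FGFR1 without Pol II S5P. The overlap is general: of all 4463 genes with FGFR1 in both lists, 4135 had both H3K4me3 and Pol II S5P. Of the members with both H3K4me3 and Pol II S5P, 26 of 45 (57.8%) also had FGFR1, against 49.4% of all genes with both. FGFR1 list 2 is longer, with 13011 peaks against 5323 in list 1, and the 2 lists differ in the number of members they reach. List 2 held a peak at 44 members (63.8%, against 47.3% of all genes) and list 1 at 26 (37.7%, against 23.4%). All 26 of list 1 were among the 44 of list 2, and all 44 had Pol II S5P in both lists. The share with Pol II S5P among all genes of FGFR1 list 2 was not counted.

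**Figure D2:**
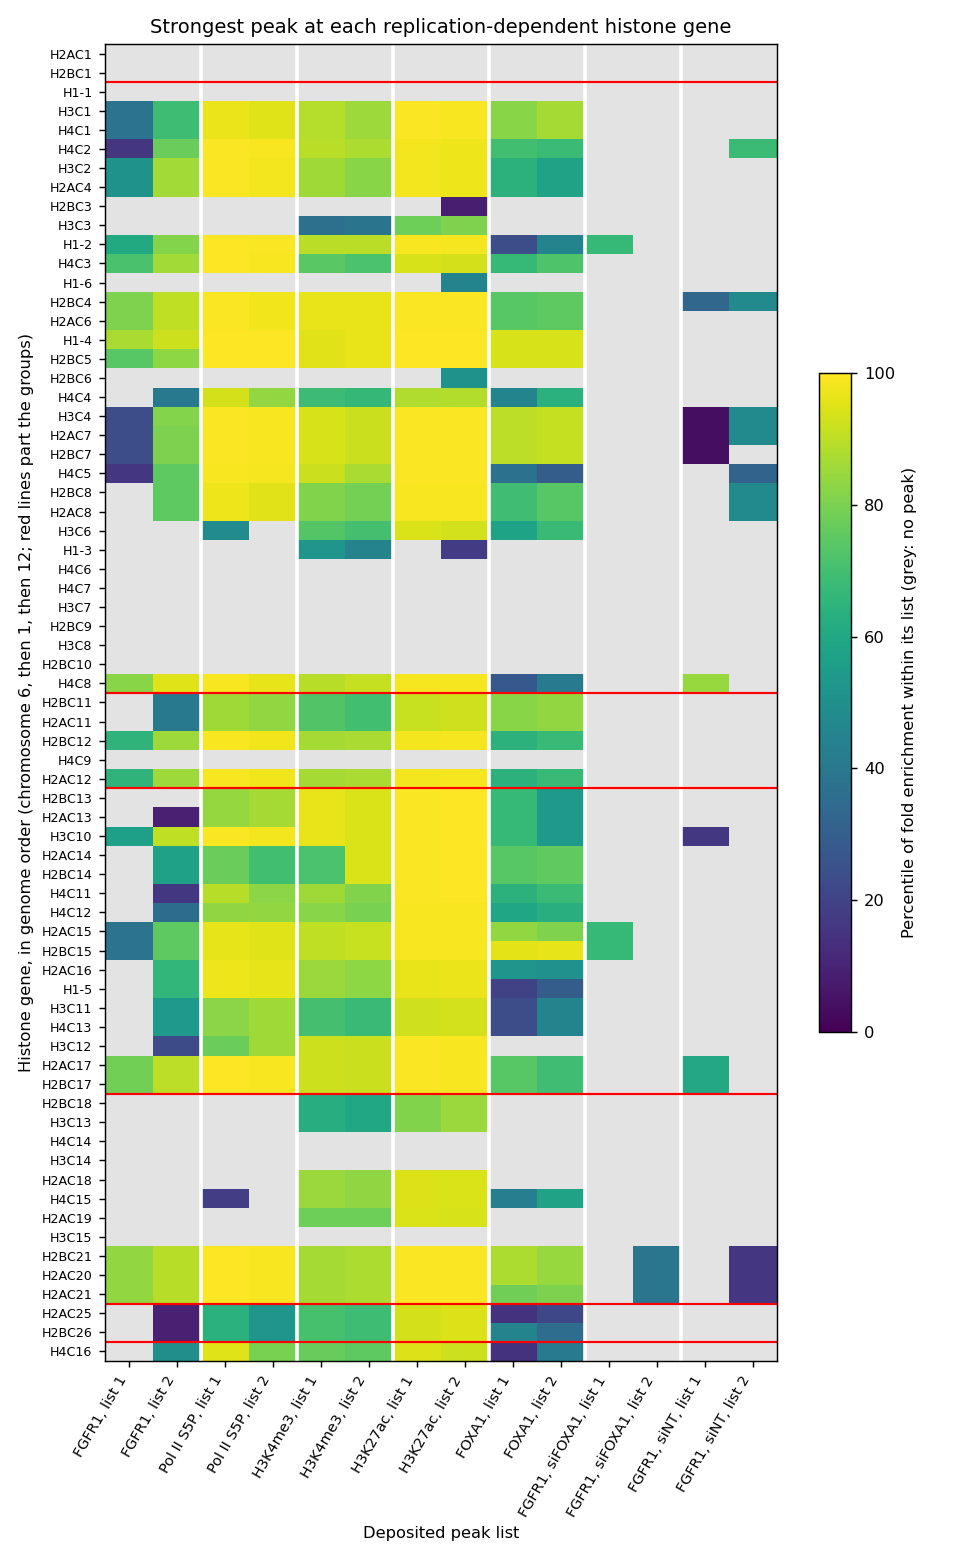
Each row is a histone gene in genome order and each column a deposited peak list, and colour gives the percentile of the strongest peak's fold enrichment within its list, with grey for no peak. Members run from H2AC1, with no peak of any list, to H1-4 at the 99.8 and 99.7 percentiles for Pol II S5P, and neighbours that share a peak share its colour.

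The levels of the called members also stood high for Pol II S5P and H3K27ac. Fold enrichment is the authors' own value for each peak, and each level here is the strongest peak at a gene. Pol II S5P had a median fold of 18.8 and 15.3 (lists 1 and 2) over the 45 members, against 9.78 and 7.67 over the 8384 called genes. H3K27ac had medians of 45.7 and 49.4 over members, against 29.5 and 31.2 over called genes. H3K4me3 was near alike, at 93.4 and 95 over members and 91.8 and 92.4 over called genes. The highest folds of these lists were 110 and 114, so the medians lay near the top of the range. Whether folds are compressed there was not tested. FGFR1 medians were 5.8 and 8.77 over members, against 5.46 and 7.99 over called genes. FOXA1 went the other way, with medians of 9.7 and 9.37 over members, against 13.6 and 13.3 over called genes. The strongest peaks at members were wide: Pol II S5P peaks had median widths of 1841 and 1225 bp, against 577 and 417 bp over called genes, and H3K4me3 peaks 4381 and 4610 bp, against 2372 and 2309 bp. These medians count a shared peak once for each gene. Each distinct peak at members, weaker ones included, was also counted once. Median widths were then 1050 and 837 bp for Pol II S5P, against 382 and 359 bp over the whole lists. For H3K4me3 they were 2650 and 2690 bp, against 772 and 786 bp.

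Members called for FGFR1 were those with the higher Pol II S5P levels. The 26 members with FGFR1 in both lists had Pol II S5P folds of 17.0 to 34.2 with a median of 26.5 in list 1, and of 14.1 to 30.0 with a median of 20.6 in list 2. The other 19 members with Pol II S5P had folds of 7.14 to 18.8 with a median of 10.9 in list 1, and of 6.33 to 15.3 with a median of 9.9 in list 2. The ranges overlap only between 17.0 and 18.8 in list 1 and between 14.1 and 15.3 in list 2. Over all genes with H3K4me3 and Pol II S5P, the medians were 11.8 and 9.23 for the 4135 with FGFR1 and 8.24 and 6.56 for the 4228 without it. The histone marks differed in the same direction. Among the members, H3K27ac medians were 50.1 and 52.7 with FGFR1 and 34.7 and 39 without it. H3K4me3 medians were 97.5 and 99.8 with FGFR1 and 78.7 and 85.9 without it. These values describe shared peaks in the same cells and carry no test.

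**Figure D3:**
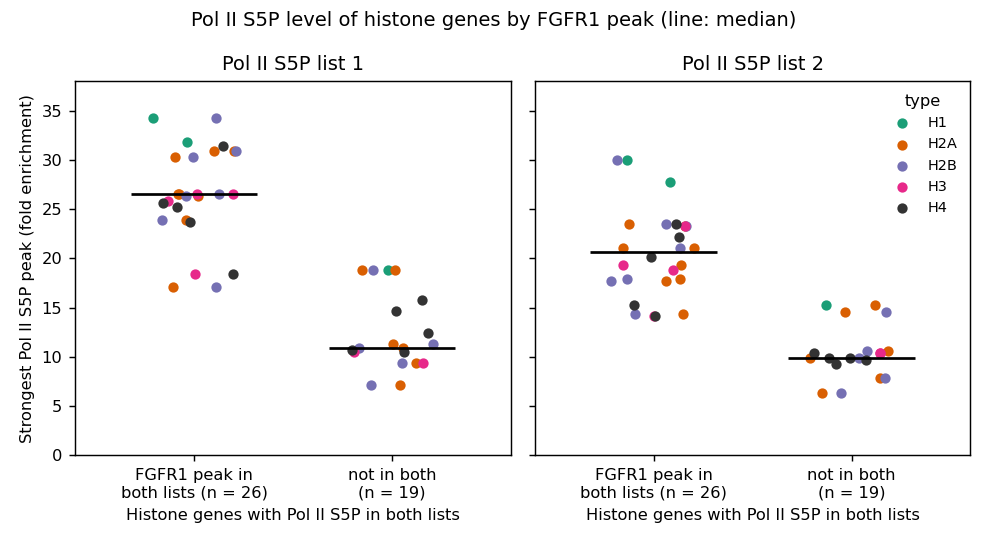
Strongest Pol II S5P peak (fold enrichment) of each histone gene with Pol II S5P in both lists, in list 1 (left) and list 2 (right), for genes with an FGFR1 peak in both lists (n = 26) and genes without (n = 19). Points are coloured by histone type and lines mark medians, which are 26.5 and 10.9 in list 1 and 20.6 and 9.9 in list 2.

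The H1 linker histone genes held both extremes. H1-4 had the strongest Pol II S5P peak of all members, at 34.2 and 30.0, on a peak shared with H2BC5 whose summit lay 47 and 50 bp into H1-4. By mean within-list percentile it also ranked first for FGFR1, at 8.42 and 11.1, with summits 67 and 50 bp past its start. H1-2 followed with Pol II S5P at 31.8 and 27.8 and FGFR1 at 5.69 and 7.99, these FGFR1 peaks not overlapping between lists. H1-5 had Pol II S5P at 18.8 and 15.3 and FGFR1 in list 2 alone, at 6.22. H1-3 had weak H3K4me3, at 11.2 and 8.79, and no Pol II S5P. H1-1 had no peak of any list, and H1-6, a testis-type H1 gene, had only an H3K27ac peak of 3.87 in list 2.

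Pol II S5P was called at 14 of 17 H2A and 12 of 18 H2B genes, and FGFR1 at 8 H2A and 7 H2B genes. Many of these genes stand head to head. Of 12 pairs of members whose starts lie back to back within 1000 bp, 11 were an H2A with an H2B gene, and the distance between starts ran from 194 to 979 bp with a median of 238 bp. In 10 pairs both genes had Pol II S5P, and in all 10 they shared their strongest Pol II S5P peak in both lists. Partner genes were read over nearly the same stretch, with 1 kb beyond each end. Sharing a peak was therefore largely set by the windows. FGFR1 was called at both genes in 5 pairs: H2BC21/H2AC20, H2BC4/H2AC6, H2AC7/H2BC7, H2AC15/H2BC15 and H2AC17/H2BC17. H2AC17 and H2BC17 shared Pol II S5P folds of 30.3 and 23.5 and FGFR1 folds of 7.05 and 9.99, with FGFR1 summits 62 and 61 bp into H2AC17. H2BC21, H2AC20 and H2AC21 shared Pol II S5P folds of 30.9 and 21.1 and FGFR1 folds of 7.73 and 9.77, these FGFR1 peaks not overlapping between lists. H2AC6 and H2BC4 ranked first for H3K4me3 by mean percentile, at 103 and 105. Their strongest FGFR1 peaks, 7.28 in list 1 and 10.2 in list 2, do not overlap. The list 1 FGFR1 peak over the H2AC6 start had a fold of 4.55. The pair without any peak, H2AC1 and H2BC1, comprises testis-type genes, and the remaining pair was H3C7/H2BC9.

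H3 genes had Pol II S5P at 6 of 13 and FGFR1 at 4 (H3C1, H3C2, H3C4 and H3C10). The 13 include H3C14 and H3C15, chromosome 1 copies at which a missing peak cannot be read. The share was therefore not ranked among the 5 types. H3C4 had Pol II S5P at 26.5 and 23.3 on a peak it shares with H2AC7 and H2BC7 over its long gene model. A further Pol II S5P peak lay at the shown H3C4 start, at 20.4 and 17.9. H3C10 had Pol II S5P at 25.9 and 18.8 and FGFR1 at 5.46 and 10.2. H4 genes had Pol II S5P at 10 of 15 and FGFR1 at 5. H4C3 ranked first of them for Pol II S5P by mean percentile, at 31.4 and 22.2. H4C8 ranked next to H1-4 for FGFR1, at 7.51 and 12.9, the highest member fold of list 2. The H4C8 summits lay upstream, at -996 and -1039 bp, and a weaker FGFR1 peak of 4.32 and 9.99 covered its start.

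Among FOXA1 peaks, H2BC15 had the strongest, at 37.6 and 37.1, with summits 1145 and 1146 bp downstream of its start. H2BC5 and H1-4 followed on a shared peak at 31.9 and 29.2, with summits at -119 and -104 bp from the H2BC5 start, and then H2AC7, H2BC7 and H3C4 at 23.8 and 24.4, on a shared peak. H1-2, among the highest for Pol II S5P, had FOXA1 at 4.38 and 5.62. H4C8 had FOXA1 at 4.59 and 5.25. FOXA1 was called at 44 of the 45 members with Pol II S5P, the exception being H3C12. Of these, the 26 with FGFR1 in both lists had median FOXA1 folds of 11.7 and 11.4, and the 18 without it 8.24 and 7.31. Among all genes with H3K4me3 and Pol II S5P, FOXA1 was called at 3394 of the 4135 with FGFR1. It was called at 3207 of the 4228 without FGFR1. Median FOXA1 folds over these genes were 13.8 and 13.3 with FGFR1 and 12.9 and 12.6 without it.

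By their medians, strongest peaks lay close to the gene start for Pol II S5P and FGFR1, though single summits spread to both sides. Median summits were 44.5 and 49.5 bp past the start for Pol II S5P, 4 and 44 bp past it for FGFR1, and -58 and -35.5 bp for FOXA1. H3K4me3 summits lay further in, at medians of 226 and 366 bp, and H3K27ac summits at 168 and 173 bp. Within 250 bp of the start lay 57.1% and 55% of the Pol II S5P summits, 56.5% and 48.7% of the FGFR1 summits, and 38.1% and 40.5% of the FOXA1 summits. FOXA1 summits spread widely, with upper quartiles of 920.5 and 1145 bp past the start. FGFR1 quartiles were -225 and 77.5 bp in list 1 and -234 and 523.5 bp in list 2. Positions over all genes were not measured. Where partners share a peak, a summit just inside a gene lies upstream of its partner's start. Summits 100 to 350 bp before the start fell mostly at members of head-to-head pairs, as this layout sets. For Pol II S5P these were 10 of 12 members in list 1 and 9 of 10 in list 2, H2BC12 and, in list 1, H3C6 being the others.

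**Figure D4:**
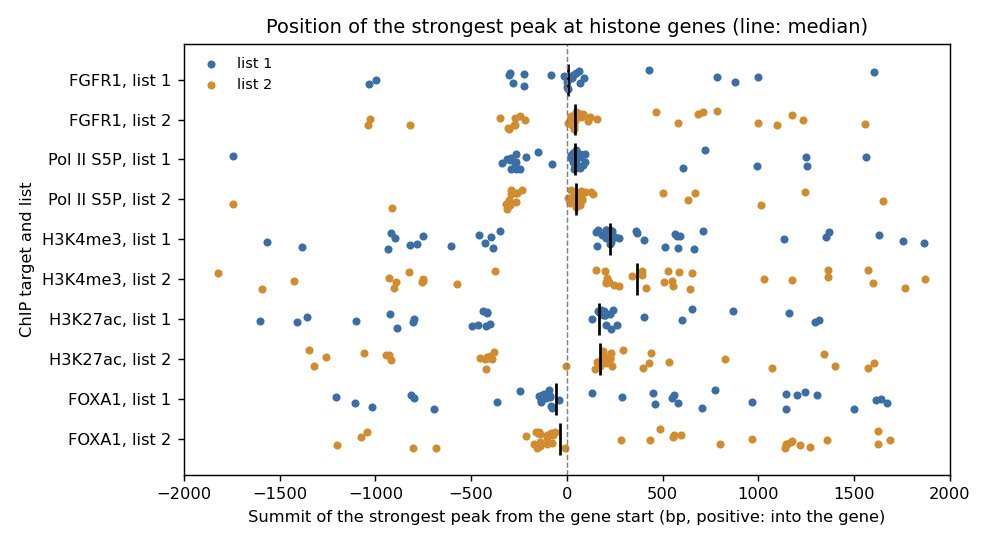
Distance in bp from gene start to the summit of the strongest peak at each histone gene with a promoter entry, by target and list, with positive values into the gene and lines at the medians. Within 250 bp of the start lie 57.1% and 55% of the Pol II S5P summits and 38.1% and 40.5% of the more widely spread FOXA1 summits, and 1 to 10 summits per list beyond 2000 bp are not drawn except in FGFR1 list 1, which has none.

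The members fall into groups along the chromosomes. At chr6:27807479-27893891 all 16 members had Pol II S5P, H3K4me3 and H3K27ac, 15 had FOXA1, and 5 had FGFR1, while FGFR1 list 2 alone reached 15. The median Pol II S5P fold there was 11.7 and 10.6. At chr6:26017032-26285534, the largest group with 32 members, 19 had Pol II S5P with a median fold of 26.3 and 19.3, and 16 had FGFR1. At chr6:27132316-27147562, 4 of 5 members had Pol II S5P and 2 had FGFR1. Neither member at chr6:25726063-25727345 had any peak. At chr1:149782689-149887965, the main chromosome 1 group with 11 members, H3K4me3 was called at 8, FOXA1 at 4 and Pol II S5P and FGFR1 at 3 each, H2BC21, H2AC20 and H2AC21. H2BC18 and H3C13 there shared H3K4me3 folds of 24.0 and 23.3 and H3K27ac folds of 8.38 and 11.4, with no Pol II S5P. H2AC25 and H2BC26 at chr1:228457364-228458558 had Pol II S5P at 7.14 and 6.33, and H4C16 on chromosome 12 at 15.7 and 9.23, and all 3 had FGFR1 in list 2 alone.

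H3K4me3 was called in both lists at 76.8% of members, near the 74.9% of all genes. No H3K4me3 peak of either list lay at 16 members: H1-1, H1-6, H2AC1, H2BC1, H2BC3, H2BC6, H2BC9, H2BC10, H3C7, H3C8, H3C14, H3C15, H4C6, H4C7, H4C9 and H4C14. Of these, 13 had no peak of any untransfected list (18.8% of members, against 15.2% of all genes), and H2BC3, H1-6 and H2BC6 had only a weak H3K27ac peak in list 2, at 2.9, 3.87 and 4.11. A run of 7 neighbours, picked out after its values were seen, spans 39.2 kb at chr6:26234212-26273412 between H3C6 and H4C8. It holds H1-3, H4C6, H4C7, H3C7, H2BC9, H3C8 and H2BC10. Neither Pol II S5P list nor any of the 6 FGFR1 lists had a peak in the run, and its strongest H3K4me3 peaks were 11.2 and 8.79. It held 1 and 4 H3K27ac peaks, the strongest at 10.5 and 11.4, and 3 FOXA1 peaks in each list, the strongest at 18.4 and 14.8. H4C8, the next member along, had H3K4me3 at 96.7 and 101.

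At 6 members of chromosome 1 a missing peak cannot be read. H4C14, H3C14 and H2AC18 face near mirror copies in H4C15, H3C15 and H2AC19, and the promoters of H4C14 and H4C15 agree at 300 of 300 bases. No peak of any of the 14 lists covered the start of any of the 6, and the stretches without a peak around them were 29.9 kb long (H4C14, H3C14 and H2AC18) and 27.4 kb long (the other copies). H2AC18, H2AC19 and H4C15 were called for H3K4me3 through peaks between the copies, at 92.6 and 92.7 (H2AC18 and H4C15) and at 81.4 and 83.9 (H2AC19). How reads that match both copies were placed is not given in the sources used here, so absence of a peak and absence of placed reads cannot be told apart. Without these 6 members, H3K4me3 was called at 50 of the others. On chromosome 6, the promoters of H4C11 and H4C12 agree at 295 of 300 bases, and the same limit holds there. Both genes were called for Pol II S5P, but no peak of any list covered their starts: H3K4me3 list 1 breaks between 27824062 and 27824286 at H4C11 and between 27831365 and 27831632 at H4C12.

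FGFR1 peaks at the histone genes were few after either transfection. The siFOXA1 lists held a peak at 3 and 3 members (4.35% each, against 6.77% and 6.13% of all genes), and the siNT lists at 8 and 10 (11.6% and 14.5%, against 11.2% and 12.5%). The mean was 3 ± 0 members after siFOXA1 and 9 ± 1.41 after siNT (SD, n = 2 each), a difference of -6. The groups do not overlap, but an exact two-sided permutation test gave p = 0.33, the smallest that 2 lists against 2 allow. Over all genes the counts were 1294 and 1173 after siFOXA1 and 2148 and 2389 after siNT, so the all-gene counts were lower after siFOXA1 as well. With lists of equal length the difference in members was -1.5 (exact permutation p = 1), and with a minimum -log10 q of 5 it was -1.

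**Figure D5:**
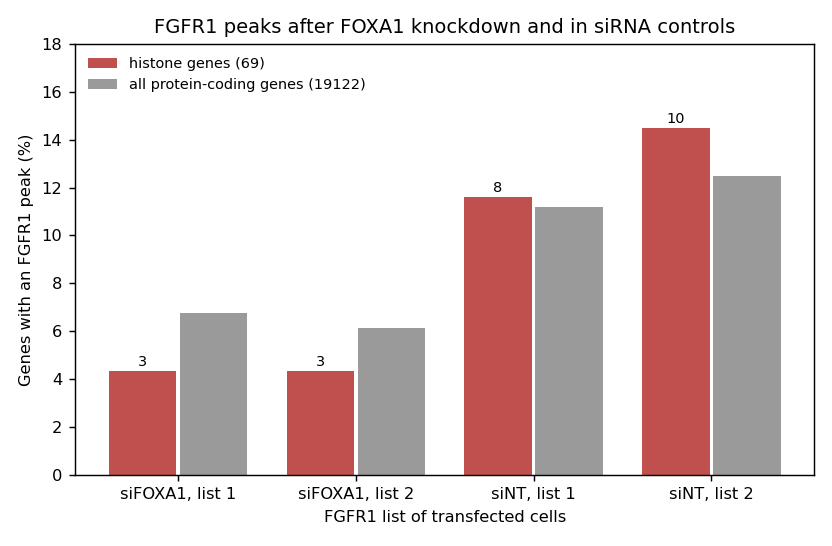
Share of genes, in percent, with an FGFR1 peak within 1 kb in each list of transfected cells, for the 69 histone genes (red, number above the bar) and all 19122 protein-coding genes (grey). The siFOXA1 lists reach 3 and 3 histone genes and the siNT lists 8 and 10, and the grey bars differ in the same direction.

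No member had a peak in both siFOXA1 lists (0%, against 4.01% of all genes), and 3 had a peak in both siNT lists (4.35%, against 7.91%). Those 3, H2BC4, H3C4 and H2AC7, had no siFOXA1 peak and so counted as lost, against 31.2% of the 1513 genes with FGFR1 in both siNT lists, and no member counted as gained, against 0.204% of all genes. Their siNT peaks do not coincide. At H2BC4 the siNT peaks were chr6:26121554-26121753 in list 1 and chr6:26115335-26115548 in list 2, at folds of 4.39 and 4.7. At H3C4 and H2AC7 they were chr6:26199072-26199302 and chr6:26198110-26198353, at 3.77 and 4.7. No siNT peak at any member overlapped a peak of the other siNT list (0 of 5 and 0 of 6), nor did any siFOXA1 peak (0 of 2 and 0 of 1). In untransfected cells all 22 FGFR1 peaks of list 1 overlapped list 2, and 22 of the 50 of list 2 overlapped list 1. No siFOXA1 peak overlapped a siNT peak either. These overlaps were not counted over the whole lists, so whether they are particular to the histone genes cannot be told.

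The peaks behind these counts had folds of 3.77 to 6.59, some above and some below the medians of their lists. Those medians were 4.82 and 4.69 in the siFOXA1 lists and 5.02 and 5.01 in the siNT lists. In the siFOXA1 lists, H1-2 had a fold of 5.14 and H2AC15 with H2BC15 5.14 in list 1, and H2BC21 with H2AC20 and H2AC21 4.38 in list 2. In siNT list 1, H4C8 had the highest fold, at 6.59, followed by H2AC17 with H2BC17 at 5.02, and H3C10 had 4.08. In siNT list 2, H4C2 had the highest, at 5.33, and H4C5, H2BC8 with H2AC8, and H2BC21 with H2AC20 and H2AC21 had 4.39, 4.7 and 4.07. In all, 18 members had a peak in at least 1 transfected list, 16 of them among the 26 with FGFR1 in both untransfected lists. Of the distinct transfected peaks at members, 2 of 3 after siFOXA1 and 9 of 11 after siNT overlapped an untransfected FGFR1 peak. The same shares over the whole lists were not counted. Transfected and untransfected lists have separate inputs in the labels and unknown depths, and are set side by side without a test.

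Other histone genes were set beside the members. Among 13 replacement and variant histone genes, FGFR1 was called at 6 and Pol II S5P at 9, and H3-3A, MACROH2A1, H3-3B and H1-10 led for FGFR1, at 9.55 and 12.2, 8.87 and 11.8, 8.19 and 12.4, and 7.05 and 8.22. H3-3A was the variant gene with FGFR1 in both siNT lists (5.65 and 6.27) and in neither siFOXA1 list. Of 28 genes for histone gene transcription and histone mRNA processing, 15 had FGFR1 and 18 Pol II S5P. In both siFOXA1 lists 3 had a peak (LSM11, E2F4 and POU2F1), against 4.01% of all genes. LSM11, a subunit of the U7 particle that trims histone mRNA, had FGFR1 at 16.4 and 17.2 after siFOXA1, 30.8 and 30.7 after siNT, and 15.9 and 19.8 in untransfected cells. E2F4 had 20.9 and 19.1 after siFOXA1, 30.4 and 31 after siNT and 7.28 and 14.4 in untransfected cells. POU2F1 had 6.11 and 3.44 after siFOXA1, 7.85 and 7.83 after siNT and 7.28 and 9.77 in untransfected cells. CDK2 had 9.1 and 16 in untransfected cells and no peak in any transfected list. NPAT had H3K4me3 at 69.4 and 68.9 but neither FGFR1 nor Pol II S5P. SLBP, which binds the histone mRNA stem-loop, had FGFR1 at 4.55 and 5.55 and Pol II S5P at 13.5 and 9.46. Of the 19 other genes lying among the chromosome 6 members, 2 had FGFR1, 5 Pol II S5P and 13 H3K4me3.

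The lists held 4327 to 150940 peaks on chromosomes 1 to 22. Folds other than those of Pol II S5P were all whole multiples, within 1.5e-05, of a single step per list, 0.187 to 0.322, as a fold taken over 1 background value for the whole list would be; whether the inputs entered is not given in the sources used here. If each fold is fragments plus 1 over background plus 1, which the sources used here do not state, FGFR1 peaks at members held 13 to 15 fragments at the summit in the siFOXA1 lists and 11 to 20 in the siNT lists, and 14 to 57 in the untransfected lists. Of the luminal breast markers, all 10 had H3K4me3 and H3K27ac and 8 had Pol II S5P, against 4, 4 and 1 of 6 basal or mesenchymal markers and 3, 2 and 0 of 4 haematopoietic markers.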

How the data were processed

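The files are MACS2 peak lists on hg38, 1 per ChIP library, 14 in all. The submitters' processing notes list the tools Bowtie2, Picard, SAMtools and MACS2 without versions, and neither the settings nor the use of the 7 inputs, not analysed here, is given in the sources used here. In each deposited list the authors give a score (not used), a fold enrichment (a ratio to background), and −log10 p and −log10 q values per peak. Depth per library is unknown beyond the fold step.

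Gene positions, symbols and promoter sequences came from RefSeq (GRCh38.p14). Peaks were counted at 19122 protein-coding genes on chromosomes 1 to 22 (overlap of at least 1 bp with the gene or 1 kb beyond either end). Peaks on other sequences, 1.35 to 2.85% per list, were left out. Counting was tested on simulated peaks and against bedtools 2.31.1 (Python 3.11.15, pandas 2.3.3, numpy 2.4.6). Members within 200 kb formed a group.

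The members and lists were chosen with earlier results of these data known. Gene lists got no set test, and conditions were compared with an exact permutation test over lists. Named members were the 5 highest per target by mean within-list percentile of fold, up to 10 without H3K4me3 in genome order, those lost or gained, the testis-type genes and, per type, the member with the strongest Pol II S5P. Others, the run of 7 included, were named after their values were seen. Replicate numbers are in the labels only and nothing in the labels ties equal numbers to a shared culture or day. Alternatives were window, q minimum, summit position, gene ends, equal list length, each list left out, a replicate block and the copied chromosome 1 genes left out.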

Additional observations from a re-analysis of the deposited data

How the results depend on the processing

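Of 91 alternative values none reversed, 11 were counts of members that moved by over 1.5 times, and the siFOXA1 minus siNT difference kept its sign while its size varied. Requiring -log10 q of at least 5 took the members with FGFR1 in both siNT lists to 0 and those lost after siFOXA1 to 0, and lists of equal length took the lost members to 0, so the loss call of these 3 genes depends on both choices; the cause was not tested. Leaving out 1 list at a time gave 26 to 44 members for FGFR1 in untransfected cells (44 without list 1), 3 to 3 for siFOXA1, 8 to 10 for siNT, 3 to 8 for lost and 0 to 3 for gained members, and -7 to -5 for the siFOXA1 minus siNT difference. That difference was -5.5 with a 500 bp window, -8 with a 3 kb window, -5 by summits, -1 at the stricter q and -1.5 with lists of equal length. With the replicate number as a block the difference was -5 and -7 by pair, -6 on average (exact sign-flip p = 0.5, the smallest that 2 pairs allow). H3K4me3 was called at 40 members, in place of 53, when the summit had to lie within the window. FGFR1 peaks near the minimum fold of a list may be present in 1 list and missing in the other.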
